A study of Homo sapiens with 6 samples.

Results

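RAP GTPases are small RAS-like switches, and 10 genes of this system were examined in ES-2 cells: RAP1A, RAP1B, RAP2A, RAP2B, RAP2C, RAPGEF1, RAPGEF2, SIPA1, RAP1GDS1 and AFDN. Every probe set whose platform annotation named exactly 1 of these genes was taken, which gave 33 of the 49293 probe sets other than array controls. The genes were chosen by their role, but with the log2 fold changes of the same 6 arrays already known, in which a RAP1A probe set differed between the groups. Their values in that comparison are therefore a description and carry no test of their own. ES-2 is an established human ovarian cancer cell line, and its total RNA was read on Affymetrix PrimeView arrays, which carry 1 or more probe sets, groups of short probes, for each transcript. Of the 6 arrays, 3 were labelled as cells overexpressing the adhesion molecule CADM1 and 3 as ES-2 control cells, described in the series as mock controls. The sources used here do not give the vector, its promoter, the number of clones or any treatment that both groups share. Nor do they say whether arrays of 1 label stem from different cultures, and the spread behind each p-value may be a technical one.

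RAP proteins are switched on by exchange factors (GEFs), which load them with GTP, and switched off by GTPase-activating proteins (GAPs), which speed up GTP hydrolysis. RAP1A and RAP1B are near-identical proteins known for turning on integrins and strengthening cell-cell junctions, and the RAP2 proteins signal to the cytoskeleton and to kinases of the Hippo pathway. AFDN encodes afadin, a RAP1-binding scaffold that links nectin adhesion molecules to actin, and nectins are relatives of CADM1. Activity of these switches is set by nucleotide state, which RNA levels do not measure.

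The labels were checked first on CADM1 itself, whose 6 probe sets did not share 1 direction. Its brightest probe set, 11728805_a_at, read 8.14, 8.10 and 8.18 on the arrays labelled overexpression and 10.24, 10.29 and 10.23 on the arrays labelled control, so that the signal was 4.34-fold higher in the latter, opposite to the label. Of the dimmer 5, 11757557_s_at ran with the label, at 7.72, 7.61 and 7.58 against 7.49, 7.44 and 7.46. Its groups did not overlap, which held for 17.4% of all probe sets. The fit over probe sets called 11728805_a_at but not 11757557_s_at, whose log2 fold change was 0.17 (limma, adjusted p = 0.0975). The remaining 4 lay between -0.06 and 0.04 on the log2 fold change scale. Whether the labels were exchanged, which would turn every direction given below, was not tested. Where 11728805_a_at lies relative to the introduced sequence was not tested either, nor was the cause of its lower signal under the overexpression label. Groups and directions follow the labels as given, and the source names of 2 overexpression arrays read CADM2 and CADM3 in place of CADM1. All values are on the deposited log2 scale, on which array medians lay between 6.18 and 6.20. The keratins KRT7, KRT8 and KRT18 and the mesenchymal filament gene VIM lay in the highest 1% of probe sets by level, whereas the epithelial markers EPCAM, CDH1 and KRT19 and the ovarian markers PAX8, WT1 and MUC16 lay below the median level of 6.19. By brightest probe set, none of the 6 epithelial markers was called (limma). Of these, 4 had an unadjusted p under 0.05 and groups that did not overlap. They were KRT7 at -0.06, KRT8 at -0.04, KRT18 at -0.07 and CDH1 at 0.18. Over all genes, 13.9% had such a p and 18.3% had groups that did not overlap. The other KRT18 probe set, at -0.10, was called in the fit over probe sets, and the other CDH1 probe set gave -0.07. Of 9 measured blood, endothelial and fibroblast markers, the endothelial gene CDH5 alone was called in the fit over genes. That fit called 2.16% of all genes. CDH5 fell by 0.27 from a mean of 6.77 to 6.50, and its other probe set gave -0.16. In the fit over probe sets the brightest CDH5 probe set was not called (limma, adjusted p = 0.0553). The summed picture of those 3 lists overlapped between the groups, with array means of 4.08 to 4.24 against 4.19 to 4.23 for blood, 5.31 to 5.37 against 5.31 to 5.45 for endothelium and 4.58 to 4.62 against 4.57 to 4.68 for fibroblasts (overexpression against control). The part of these cell types in the results below was not tested.

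Most probe sets of the 10 genes differed little between the labelled groups. In the arrays labelled overexpression 16 of the 33 read higher and 17 read lower, with a median log2 fold change of -0.0038 against 0.0032 over all probe sets. The size of the change was within 0.1 for 26 of them, a share of 78.8% against 78.0% of all probe sets. The fit across all probe sets (limma, adjusted p under 0.05) called 2 of the 33, 11762533_a_at of RAP1A and 11721608_s_at of RAPGEF2, where it called 1.49% of all probe sets. The 3 arrays of one label lay wholly above or below the 3 of the other for 7 of the 33, 4 higher and 3 lower, where this held for 17.4% of all probe sets, 8.5% higher and 8.94% lower. Nothing is read from either count, since the genes were chosen with this comparison known.

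**Figure D1:**
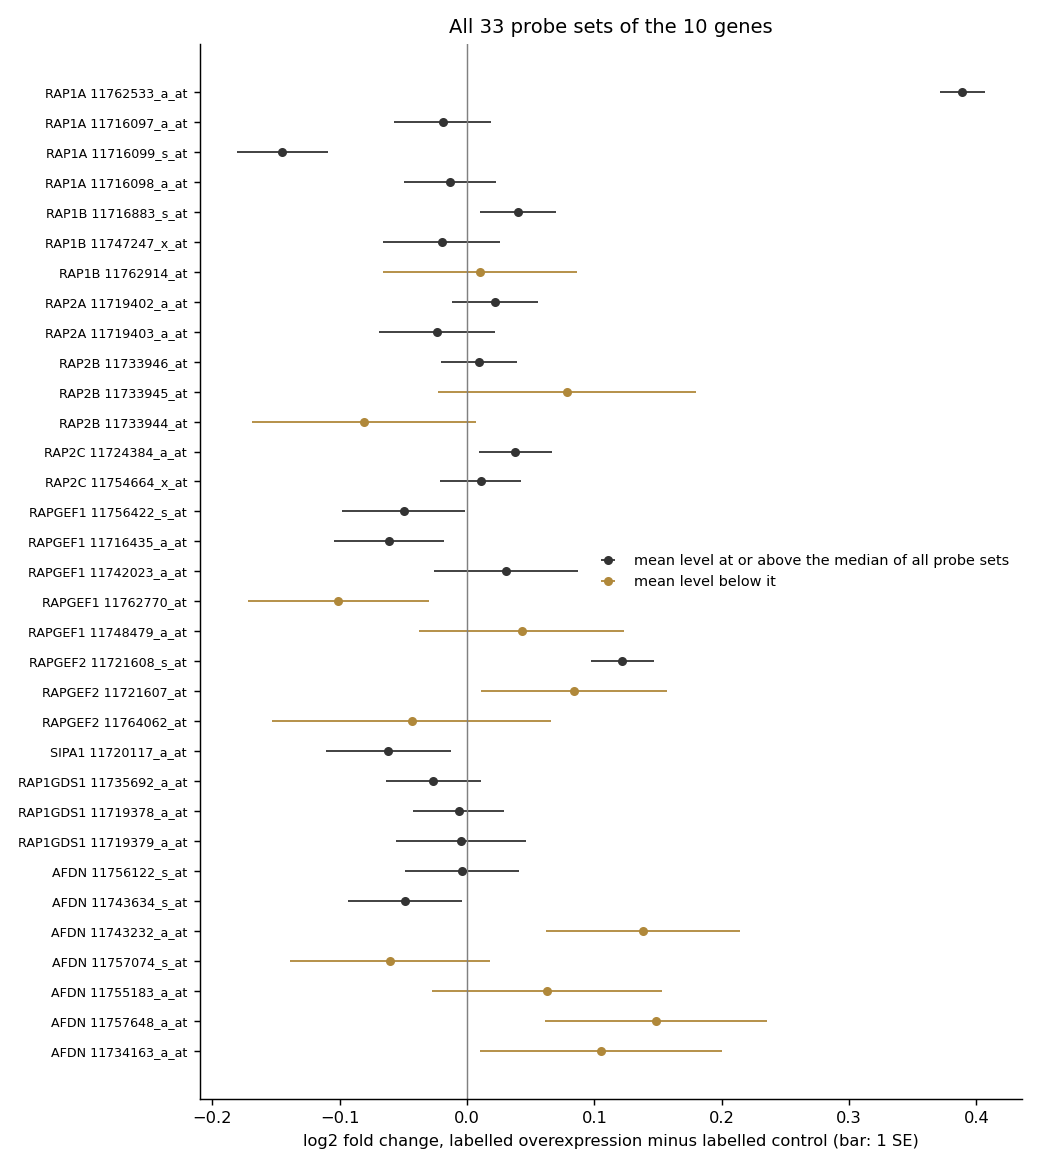
Log2 fold change of each of the 33 probe sets (x axis, arrays labelled overexpression minus arrays labelled control) with 1 standard error as the bar, n = 3 arrays per label; black points reach at least the median level over all probe sets and brown points lie below it. RAP1A 11762533_a_at stands at 0.39, and the other 32 lie between -0.14 and 0.15.

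RAP1A was the member with the largest difference, and it rested on 1 of its 4 probe sets. Probe set 11762533_a_at read 14.21, 14.23 and 14.21 on the arrays labelled overexpression and 13.87, 13.83 and 13.80 on those labelled control. The 3 overexpression arrays lay close together, all above the highest control array. The means were 14.22 ± 0.010 (SD, n = 3) and 13.83 ± 0.033 (SD, n = 3), a log2 fold change of 0.39 ± 0.018 (SE), or 1.31-fold on the linear scale. As bulk RNA, this cannot tell a change in all cells from a change in a share of them.

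The other 3 RAP1A probe sets did not show this difference, and their mean levels were 8.15, 8.15 and 8.88 against 14.02 for 11762533_a_at. Probe sequences were not used here, so whether 11762533_a_at reports RAP1A RNA was not tested. Probe set 11716099_s_at pointed the other way, at 8.09, 8.07 and 8.07 on the overexpression arrays and 8.22, 8.26 and 8.19 on the control arrays. Its groups did not overlap either, and its log2 fold change was -0.14 ± 0.036 (SE). The fit did not call it, but 3 of the 16 alternative fits did. Probe set 11716097_a_at read 8.95, 8.80 and 8.84 against 8.90, 8.88 and 8.88, and 11716098_a_at read 8.13, 8.17 and 8.12 against 8.11, 8.18 and 8.17. Both overlapped between the labels, with log2 fold changes of -0.02 ± 0.038 (SE) and -0.01 ± 0.036 (SE). The mean of all 4 probe sets gave 0.05 ± 0.019 (SE) for RAP1A, which the fit over gene means did not call.

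**Figure D2:**
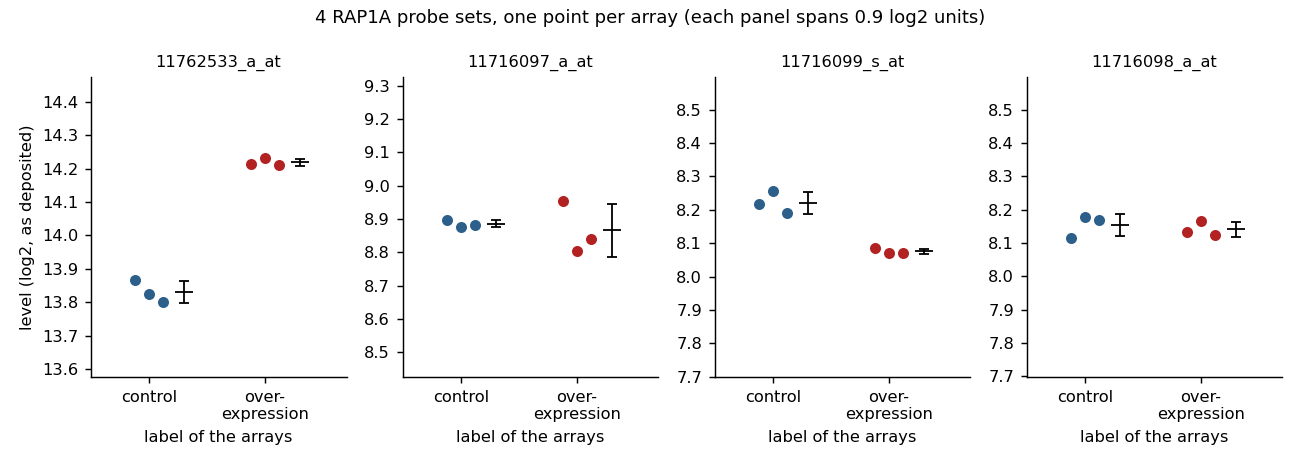
Level of the 4 RAP1A probe sets on the deposited log2 scale (y axis), 1 point per array, by label (x axis); the bars give mean ± SD, n = 3, and every panel spans 0.9 log2 units. The groups stand apart in opposite directions in 11762533_a_at and 11716099_s_at and overlap in the remaining pair.

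The probe set that carried the RAP1A difference lies at the very top of the measured scale. Array maxima ran from 14.29 to 14.33, and 11762533_a_at came within 0.071 to 0.092 of the maximum on the overexpression arrays and within 0.46 to 0.50 of it on the control arrays. It ranked 2 among all probe sets on each overexpression array and 14, 17 and 18 on the control arrays. Only 2 probe sets had a higher mean over the 6 arrays. Near saturation a scanner signal grows less than the transcript does, so a fold change read there need not be the fold change of the RNA, and neither detection calls nor scanner files were used.

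Fold changes at that height were otherwise small. The highest 1% by mean level, at or above 12.36, held 493 probe sets with a median absolute log2 fold change of 0.02. Of these, 19 were called, or 3.85% against 1.49% of all probe sets. The median standard error of the 493 was 0.018, against 0.068 over all probe sets. RAP1A 11762533_a_at had the largest difference of the 493. The next were HSPA5 at -0.20, a chaperone of the endoplasmic reticulum, and NQO1 at 0.15, a quinone reductase. The 14 probe sets within 0.2 of its mean level ranged from -0.05 to 0.03, and limma called none of them, with 2 at an unadjusted p under 0.05. After quantile normalization, which forces the same distribution on each array, its log2 fold change was 0.31.

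**Figure D3:**
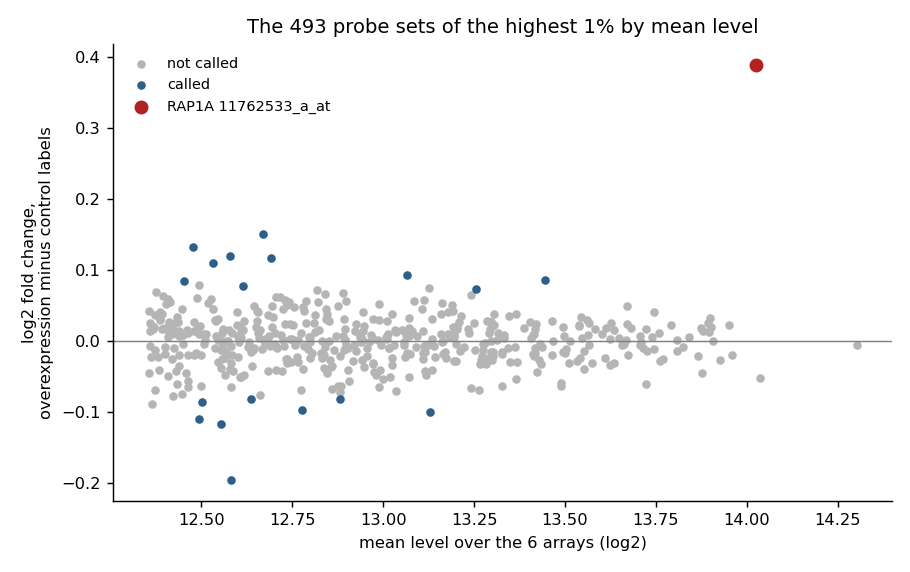
Log2 fold change (y axis, arrays labelled overexpression minus control) against mean level over the 6 arrays (x axis, log2) for the 493 probe sets of the highest 1%; blue points were called by the fit across all probe sets, grey points were not, and the red point is RAP1A 11762533_a_at. It stands at 0.39, and the others lie between -0.20 and 0.15.

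The search for similar patterns took genes at or above the median level over genes, each centred on its own mean. Those whose values ran closest to RAP1A 11762533_a_at over the 6 arrays were CLIP4, SLCO1C1 and ALPK2. The mean absolute distance was 0.028 for CLIP4, a CAP-Gly domain protein, 0.050 for SLCO1C1, an organic anion transporter, and 0.054 for ALPK2, an alpha kinase. These 3 had log2 fold changes of 0.33, 0.33 and 0.31. The likeness follows the contrast between the labels, which all 4 share.

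RAP1B, the close relative of RAP1A, differed little. Probe set 11716883_s_at read 10.28, 10.21 and 10.17 on the arrays labelled overexpression and 10.21, 10.14 and 10.19 on those labelled control, a log2 fold change of 0.04 ± 0.030 (SE). Its groups overlapped, as did those of 11747247_x_at at -0.02 ± 0.046 (SE) and of 11762914_at at 0.01 ± 0.076 (SE), the last at a low level of 3.28. A further 2 probe sets name both RAP1B and RAP1BL and were left out by the rule. They gave -0.04 ± 0.047 (SE) and 0.03 ± 0.049 (SE), also with overlap.

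The RAP2 genes were close to level between the labels in their brightest probe sets. RAP2A 11719402_a_at read 8.72, 8.70 and 8.72 against 8.70, 8.64 and 8.73 (overexpression against control), with a log2 fold change of 0.02 ± 0.034 (SE). RAP2B 11733946_at read 9.89, 9.92 and 9.88 against 9.94, 9.84 and 9.88, with 0.0096 ± 0.030 (SE). RAP2C 11724384_a_at read 9.24, 9.23 and 9.19 against 9.17, 9.21 and 9.18, with 0.04 ± 0.029 (SE). In all 3 genes the groups overlapped. The remaining RAP2 probe sets ranged from -0.08 to 0.08, both ends being RAP2B probe sets at levels of 4.42 and 4.50, below the median of all probe sets, with standard errors of 0.088 and 0.10. None of the 7 was called.

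RAPGEF2, an exchange factor for RAP1 and RAP2 with a PDZ domain, was higher in the arrays labelled overexpression in its brightest probe set. Probe set 11721608_s_at read 9.86, 9.87 and 9.89 on the overexpression arrays and 9.75, 9.76 and 9.74 on the control arrays. The groups were narrow and did not overlap, with means of 9.87 ± 0.014 (SD, n = 3) and 9.75 ± 0.0100 (SD, n = 3). The log2 fold change was 0.12 ± 0.025 (SE), or 1.09-fold. The other 2 probe sets were below the median level and overlapped between the labels, with 11721607_at at 0.08 ± 0.073 (SE) and 11764062_at at -0.04 ± 0.11 (SE). The difference of 11721608_s_at stayed between 0.11 and 0.13 with any 1 of the 6 arrays left out. In each of these 6 fits over probe sets it was no longer called. The matching fits over genes called 1 of the 10 genes without the first array of either label, and 2 without any other array.

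RAPGEF1 is the exchange factor recruited by CRK adaptor proteins, and its 5 probe sets did not share 1 direction. Probe set 11716435_a_at read 7.41, 7.50 and 7.49 on the overexpression arrays and 7.54, 7.51 and 7.54 on the control arrays, without overlap but with a gap smaller than the spread of the overexpression arrays. Its log2 fold change was -0.06 ± 0.043 (SE), and that of the dimmer 11762770_at, which did not overlap either, was -0.10 ± 0.071 (SE). The brightest probe set, 11756422_s_at, read 7.89, 7.86 and 7.95 against 8.06, 7.91 and 7.88, with overlap and a log2 fold change of -0.05 ± 0.048 (SE). The remaining pair gave 0.03 and 0.04, and none of the 5 was called.

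SIPA1, a GAP that switches RAP1 off, was read by 1 probe set. It read 7.34, 7.46 and 7.48 on the overexpression arrays and 7.49, 7.53 and 7.43 on the control arrays. The groups overlapped, with the lowest value on an overexpression array, and the log2 fold change was -0.06 ± 0.049 (SE). RAP1GDS1 encodes SmgGDS, a chaperone that binds RAP1 and other small GTPases around their prenylation. Its 3 probe sets gave -0.03 ± 0.037 (SE), -0.0065 ± 0.036 (SE) and -0.0048 ± 0.051 (SE), and all 3 overlapped between the labels.

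AFDN was read by 7 probe sets of mixed sign. The pair above the median level, 11756122_s_at and 11743634_s_at, gave -0.0038 ± 0.045 (SE) and -0.05 ± 0.044 (SE). The first read 7.71, 7.74 and 7.72 against 7.66, 7.81 and 7.72, and both overlapped. Of the 5 dim probe sets 4 were positive. Among them 11743232_a_at read 5.34, 5.48 and 5.30 against 5.26, 5.23 and 5.21, and 11757648_a_at read 3.95, 3.97 and 4.18 against 3.83, 3.95 and 3.88. The groups of both stood apart, but by gaps smaller than the spread of the overexpression arrays, with log2 fold changes of 0.14 ± 0.076 (SE) and 0.15 ± 0.087 (SE). None of the 7 was called, and whether the dim probe sets detect AFDN is not known without detection calls.

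**Figure D4:**
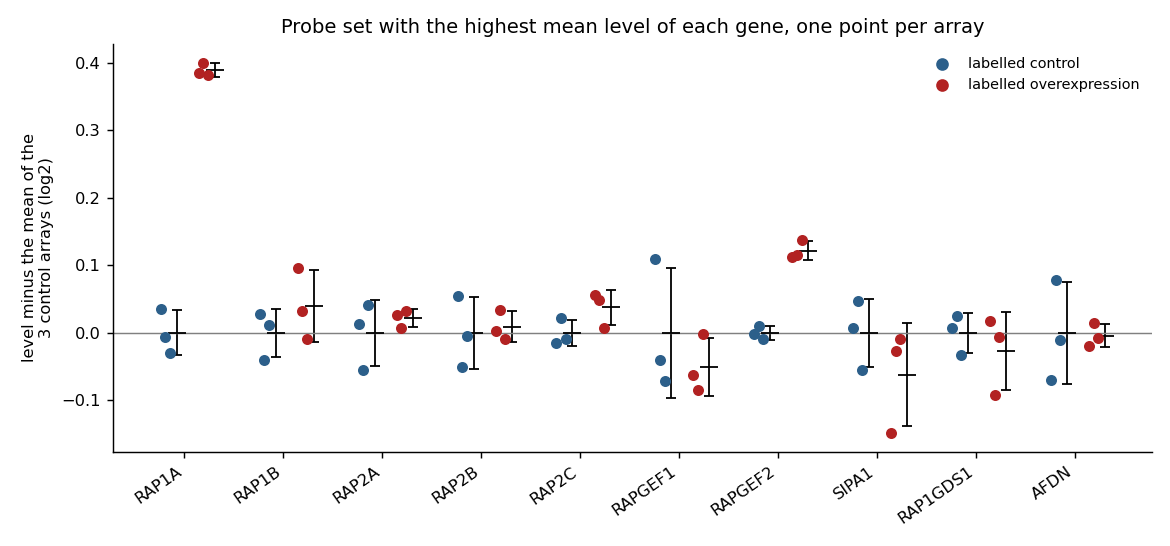
Level of the brightest probe set of each of the 10 genes minus the mean of its 3 control arrays (y axis, log2), 1 point per array, blue for arrays labelled control and red for arrays labelled overexpression; bars give mean ± SD, n = 3. The labels stand apart for RAP1A, at 0.39, and for RAPGEF2, at 0.12, and overlap for the other 8 genes.

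With each gene read by its brightest probe set, the fit across 18132 genes called 2 of the 10 genes, RAP1A and RAPGEF2, against 2.16% of all genes. The same 2 had groups that did not overlap, as had 18.3% of all genes. The median absolute log2 fold change was 0.04 over the 10 genes and 0.05 over all genes. With the mean of all probe sets of a gene, limma called none of the 10, with RAP1A alone at an unadjusted p under 0.05, and the means ran from -0.06 for SIPA1 to 0.05 for RAPGEF2. Precision differed with level: the median standard error was 0.037 for the 21 probe sets that reached the median level and 0.084 for the 12 below it.

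The wider RAP system was then read from 7 lists of other genes, set out by role. Of 60 measured genes 3 rose and none fell (limma, adjusted p under 0.05 over all genes), where 0.96% of all genes rose and 1.2% fell. At an unadjusted p under 0.05 there were 11 of the 60, or 18.3%, against 13.9% of all genes. The median log2 fold change of the 60 was 0.01, against 0.0085 over all genes. The 3 that rose were the GAP SIPA1L1, the effector ARHGAP29 and the afadin-binding nectin NECTIN4. In the fit over probe sets the same probe set of SIPA1L1 was called (limma, adjusted p = 0.0136). Those of ARHGAP29 (limma, adjusted p = 0.0614) and NECTIN4 (limma, adjusted p = 0.0511) were not.

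Among 6 measured RAP GAPs SIPA1L1, a relative of SIPA1, rose in the arrays labelled overexpression. It read 9.12, 9.10 and 9.11 on the overexpression arrays and 8.90, 8.97 and 8.97 on the control arrays, without overlap. The log2 fold change was 0.16 ± 0.030 (SE) (limma, adjusted p = 0.00996), and its other probe set gave 0.12. The list's median was 0.03, with RASA3 the lowest at -0.10. The call was lost without the first overexpression array (limma, adjusted p = 0.0723) or the first control array (limma, adjusted p = 0.0782).

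Among 16 measured RAP effectors ARHGAP29, a GTPase-activating protein that acts below RAP1 in barrier-forming cells, rose. It read 9.43, 9.32 and 9.39 on the overexpression arrays and 9.17, 9.23 and 9.29 on the control arrays, so that the groups nearly touched. The log2 fold change was 0.15 ± 0.037 (SE) (limma, adjusted p = 0.0473), and all 6 of its probe sets were positive, from 0.04 to 0.18. The call was lost without the first (limma, adjusted p = 0.255) or the third (0.0970) overexpression array or the first (0.204) or second (0.125) control array, and with the mean of its probe sets (0.350). The list's median was 0.02. Its highest value, 0.25 for ARAP3, a RAP-regulated GAP named here after its value was seen, was not called, and its other probe set gave -0.09.

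Among 9 measured afadin partners NECTIN4 rose, at 6.40, 6.43 and 6.42 on the overexpression arrays and 6.21, 6.19 and 6.07 on the control arrays. The groups did not overlap, and the log2 fold change was 0.26 ± 0.063 (SE) (limma, adjusted p = 0.0453). Its other 2 probe sets gave 0.20 and 0.29. With any 1 array left out the call was lost (limma, adjusted p from 0.0842 to 0.146). The list's median was 0.06, with 7 genes positive and 2 negative.

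No gene was called in the other 4 lists. Of 9 exchange factors for RAP, PLCE1 had the lowest p, at 0.15 ± 0.061 (SE) (limma, adjusted p = 0.260). Its groups did not overlap, and its other probe set gave 0.20. DOCK4 followed at 0.12, but its other probe sets were negative. Of the 9, 6 were below the median level. Of 5 adaptors of the exchange factors NEDD9 gave 0.11, although its other 3 probe sets were negative and the mean of all 4 gave -0.0035, and the CRK partner BCAR1 0.08, with a list median of -0.0081. Of 4 genes of prenylation, which anchors RAP proteins in membranes, ICMT gave -0.09 ± 0.026 (SE) (limma, adjusted p = 0.10). ICMT is the methyltransferase that finishes the lipid anchor. Its groups did not overlap, and its other probe set gave -0.05. FNTA, a subunit shared by prenyltransferases, gave 0.02. Of 11 related RAS-like GTPases RIT1 gave 0.10 (limma, adjusted p = 0.199), with its other probe sets at 0.10 and 0.21. RALA gave -0.07 without overlap (limma, adjusted p = 0.219), with its others at -0.05 and 0.03. The median of this list was 0.0085. At an unadjusted p under 0.05, these 4 lists held 1, 0, 1 and 2 genes, beside the same 13.9% of all genes.

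**Figure D5:**
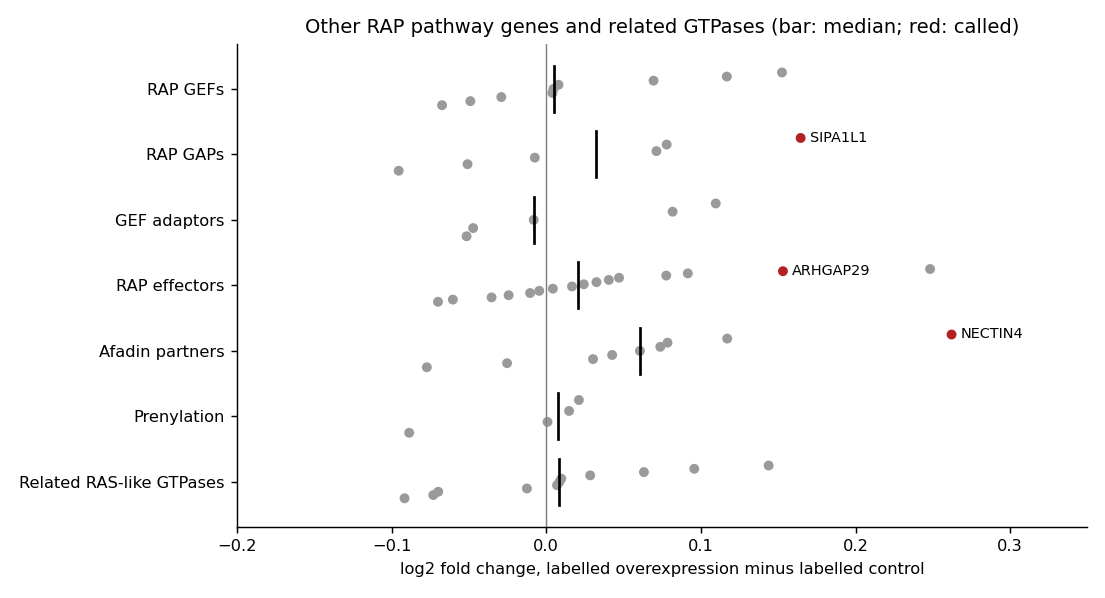
Log2 fold change (x axis, arrays labelled overexpression minus control) of 60 other genes of the RAP system and related GTPases in 7 lists (y axis), 1 point per gene by its brightest probe set, red where the fit across all genes called it; the black bar is the list's median. SIPA1L1, ARHGAP29 and NECTIN4 are red, and the medians lie between -0.0081 and 0.06.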

How the data were processed

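The data were 1 table, with 49395 probe sets in rows and 6 arrays in columns. The deposited values were taken as log2 expression, from their range and near-equal medians. MAS5 is named per the submitters' processing notes, without version or settings, and whether the values came from it was not tested. The sources used here state neither the log base nor how arrays were scaled. Coordinates are left out because no build was named.

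Genes came from the platform annotation, with 44988 probe sets naming 1 gene, 1832 several and 2473 none, and 102 array controls left out. Gene numbers of 44961 matched the current gene table (GRCh38.p14), which gave the symbols. RAPGEF4, CRK, MAGI1, MAGI2, KRIT1, F11R, FNTB and NRAS among the listed pathway genes were not analysed here. Fits used limma 3.58.1 in R 4.3.3 (lmFit, eBayes with a mean-variance trend, label as the single term) with two-sided tests and p-values adjusted by Benjamini-Hochberg over 49293 probe sets or over 18132 genes. A gene was read by its probe set with the highest mean, of the _x_at type only where it had no other. The code was tested on simulated data. Means are over 3 arrays per label, whose number limits the precision.

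All probe sets of the 10 genes are named; of each list, up to 4 called genes by p, or the 2 of lowest p; and the 3 genes closest in pattern to RAP1A. HSPA5, NQO1, RASA3 and ARAP3 were added after their values were seen. The members and lists were chosen with earlier results of these data known. Alternatives were quantile normalization, median centring, offsets of 16 and 64 on the linear scale, 2 filters on level, no trend, robust variance, a replicate block, array weights, each array left out, and the mean of a gene's probe sets. Figures were drawn with matplotlib 3.10.9.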

Additional observations from a re-analysis of the deposited data

How the results depend on the processing

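RAP1A 11762533_a_at was called and positive in all 16 alternative fits over probe sets, from 0.31 to 0.41. RAPGEF2 11721608_s_at kept its sign in all 16, from 0.11 to 0.13, and was called in 8. The count of called probe sets among the 33 was 1 in place of 2 without a trend, with the replicate block and without any 1 array (1 in each), and 3 with either filter on level and with array weights, where RAP1A 11716099_s_at was called too. The count of called genes among the 10 was 1 in place of 2 without a trend and with the replicate block, 0 with the mean of all probe sets, and 1 to 2 with 1 array left out. Over all probe sets 735 were called, 17 without a trend, 377 with the replicate block and 241 to 692 with 1 array left out; over all genes 392, 11, 172 and 116 to 375.

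Called RAP GAPs went from 1 to 0 without a trend, and were 0 to 1 with 1 array left out. Called RAP effectors went from 1 to 0 with median centring, either offset, no trend, robust variance, the replicate block and the mean of all probe sets, and were 0 to 1 with 1 array left out. Called afadin partners went from 1 to 0 with either offset, no trend, the replicate block and the mean of all probe sets, and were 0 with any 1 array left out; the filter at the median level also gave 0, since it took NECTIN4 out of the fit. The mean of all probe sets reversed DOCK4 to -0.0144 and NEDD9 to -0.0035. Same-numbered arrays of the 2 labels did not deviate together (correlations of 0.113, -0.0828 and -0.0806), so the replicate numbers were not taken as pairs. Apart from the loss of NECTIN4 under the filter at the median level, the causes of these changes were not tested. The fits that left 1 array out also had fewer arrays, and the part of this was not tested. Groups of 3 arrays are too small for a test of outlying arrays, and without detection calls low probe sets cannot be told from background.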
